A study of Mus musculus with 23 samples.

Results

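Spry1, Spry2, Spry4, Spred1, Spred2, Dusp4, Dusp6, Etv4 and Etv5 are genes that signaling through the RAS-RAF-MEK-ERK kinase cascade, the MAPK pathway, is known to switch on. These 9 genes, of 47643 in the expression table, were picked by name as negative feedback genes and targets of ERK, and all 9 were found. They were picked with their expression in 18 libraries of B16F10 mouse melanoma, by sample type and guide, already in view. Differences of the 9 genes among those 18 libraries are therefore given as a description, with no p-value, and where members passing a rule are counted, the share of all genes passing it stands beside the count and nothing is read from it.

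When growth factors bind receptor tyrosine kinases, RAS recruits RAF, RAF phosphorylates MEK, and MEK phosphorylates ERK, which enters the nucleus. Sprouty and Spred proteins then hold back the cascade near RAS and RAF, DUSP phosphatases remove phosphate from ERK itself, and the ETS-family factors Etv4 and Etv5 carry the signal on to further genes. In melanoma, in which this cascade is often overactive, transcripts of these genes are commonly read as a gauge of ERK output.

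The study asked how the nuclear receptor gene Nr2f6 in melanoma cells affects antitumor immunity, and profiled 3 sample types by poly(A) RNA-seq: bulk tumors, magnetically sorted tumor cells and cultured cells. Each sample type had 2 control (WT) libraries, 2 of B16F10 cells edited with the Nr2f6 guide sg492 and 2 edited with the guide sg495. Per the study's methods, edited cells were sorted for a dye-labeled guide delivered with Cas9 protein, and B16F10 tumors were grown under the skin of male C57BL/6 mice aged 6 to 8 weeks. Whether the edited lines were pools or single clones is not given in the sources used here. Sorted tumor cells came from tumors digested with collagenase, from which stromal cells were then depleted. Apart from these 18 libraries, 2 IgG and 3 anti-PD1 libraries of WT B16F10, for which the labels name no tissue, were left out of the choice of the 9 genes. The labels give 23000000 to 31000000 reads for the libraries, but the values are TPM, the share of transcripts scaled to the same total in each library, a level corrected for transcript length that carries no depth of its own. No source states that replicates came from separate mice or cultures, so p-values measure only the spread between these libraries, which may be technical.

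The promoters of Dusp6 and Spry2 are shown as the sequence context of members that stood far above cultured cells in the sorted libraries. Each is the 250 bases before the annotated start, from RefSeq (GRCm38.p6), 5′ to 3′ on the strand of the gene. Capitals mark every GGAA, the core of sites for ETS-family factors such as Etv4 and Etv5, and its reverse complement TTCC.
Dusp6 promoter, chr10:99262981-99263230, plus strand: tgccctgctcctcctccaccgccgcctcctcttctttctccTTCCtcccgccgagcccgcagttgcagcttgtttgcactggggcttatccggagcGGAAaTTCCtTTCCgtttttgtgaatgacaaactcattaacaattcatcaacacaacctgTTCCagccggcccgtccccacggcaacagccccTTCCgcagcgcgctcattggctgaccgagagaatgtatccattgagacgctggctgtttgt
Spry2 promoter, chr14:105896820-105897069, minus strand: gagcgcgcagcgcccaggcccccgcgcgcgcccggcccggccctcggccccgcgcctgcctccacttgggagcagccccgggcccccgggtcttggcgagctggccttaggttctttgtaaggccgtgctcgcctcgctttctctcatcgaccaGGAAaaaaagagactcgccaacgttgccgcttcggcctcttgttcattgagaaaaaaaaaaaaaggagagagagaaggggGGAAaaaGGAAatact

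The Dusp6 window held 6 GGAA matches and the Spry2 window 3, beside a median of 3 over 32851 promoter windows of the same length. Promoters were at hand for 6 of the 9 genes (Spry1, Spry2, Spred1, Spred2, Dusp6 and Etv5), as 7 windows because Etv5 has a pair of starts. GGAA was found in 6 of the 7 windows and in 93.4% of all windows. The windows not shown held 7 matches (Spred2), 4 (Spred1), 1 (Spry1) and, for the pair of Etv5, 0 and 4. None of the 7 held CCGGAA, a longer ETS site that overlaps the core and occurred in 12.0% of all windows. Likewise, none held the AP-1 site, TGANTCA, which occurred in 6.75% of all windows. The CRE site, TGACGTCA, occurred in 1.55% of all windows and in none of the 7. Both strands were searched, and a match describes letters only.

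Marker levels followed the labeled sample types. The summed TPM of 12 melanocyte genes, led by Tyrp1 or Dct, lay between 18656 and 22605 in all 18 libraries. Ptprc, which encodes the leukocyte antigen CD45, ranged from 5.74 to 26.2 TPM in bulk tumors, was at most 0.15 TPM in sorted tumor cells and was listed at 0 in every cultured library. The sum of 18 leukocyte genes was 461 to 1081 TPM in bulk tumors, 10.3 to 20.6 in sorted tumor cells and 5.97 to 8.80 in cultured cells. Sorted controls had sums of 12.1 and 10.3, the pair labeled sg492 14.8 and 16.4, and sg495 16.5 and 20.6. Cd68 led the sum in every sorted library, at 3.62 to 12.1 TPM, against 1.11 to 3.05 in cultured cells. The sum of 10 fibroblast genes was 399.7 to 1104 TPM in bulk tumors, 4.37 to 7.08 in sorted tumor cells and 9.79 to 15.05 in cultured cells. Keratinocyte markers summed to at most 0.48 TPM in sorted tumor cells and 10.3 in bulk tumors. In such samples, fewer cells of a type and less RNA per cell cannot be told apart.

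Nr2f6, the edited gene on chromosome 8, stood at 31.9 and 32.9 TPM in cultured controls, 26.6 and 31.5 with sg492 and 18.6 and 22.4 with sg495. In bulk tumors it was 25.8 and 25.2 in controls, 22.3 and 23.3 with sg492 and 17.2 and 15.8 with sg495. Among sorted samples the controls had 20.3 and 17.7 TPM and sg495 had 10.6 and 12.2. The sorted pair labeled sg492, at 19.8 and 25.7 TPM, was not below its controls, so the guide label of that pair was not borne out by the transcript. Frameshift editing need not lower a transcript. Genes of chromosome 8 had a median log2 difference from control with sg495 of -0.33 in cultured cells, -0.34 among sorted libraries and -0.25 among bulk tumors. The part of this shift in the Nr2f6 levels was not tested.

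Across sample types, Etv4, Etv5, Spry2, Spry4 and Dusp6 had mean TPM at least 3.04-fold above cultured cells in both kinds of tumor sample, Dusp4 was raised more in sorted tumor cells than in bulk tumors, and Spry1, Spred1 and Spred2 differed by less than 2-fold. Ratios of mean TPM in sorted tumor cells over cultured cells (n = 6 libraries each) were 12.6 for Etv4, 12.4 for Etv5, 10.1 for Spry4, 7.36 for Spry2, 4.85 for Dusp4 and 3.803 for Dusp6. They were 1.45 for Spred2, 1.38 for Spry1 and 1.11 for Spred1. Ratios of bulk tumors over cultured cells were 18.2 for Spry4, 14.4 for Etv4, 13.1 for Etv5, 3.798 for Dusp6, 3.04 for Spry2, 1.94 for Dusp4, 1.67 for Spry1, 1.47 for Spred2 and 1.10 for Spred1. In the sorted against cultured comparison, 6 of the 9 passed the call rule (a Benjamini-Hochberg adjusted limma p below 0.05 with a fold of 1.5 or more) as higher and 0 as lower, where 14.6% of all 13152 genes tested were called higher and 8.99% lower. The 9 genes were chosen with these values known, and 2 of the 6, Etv4 and Spry4, averaged below 1 TPM in cultured cells and passed the filter (a mean of 1 TPM) through the tumor samples alone.

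**Figure D1:**
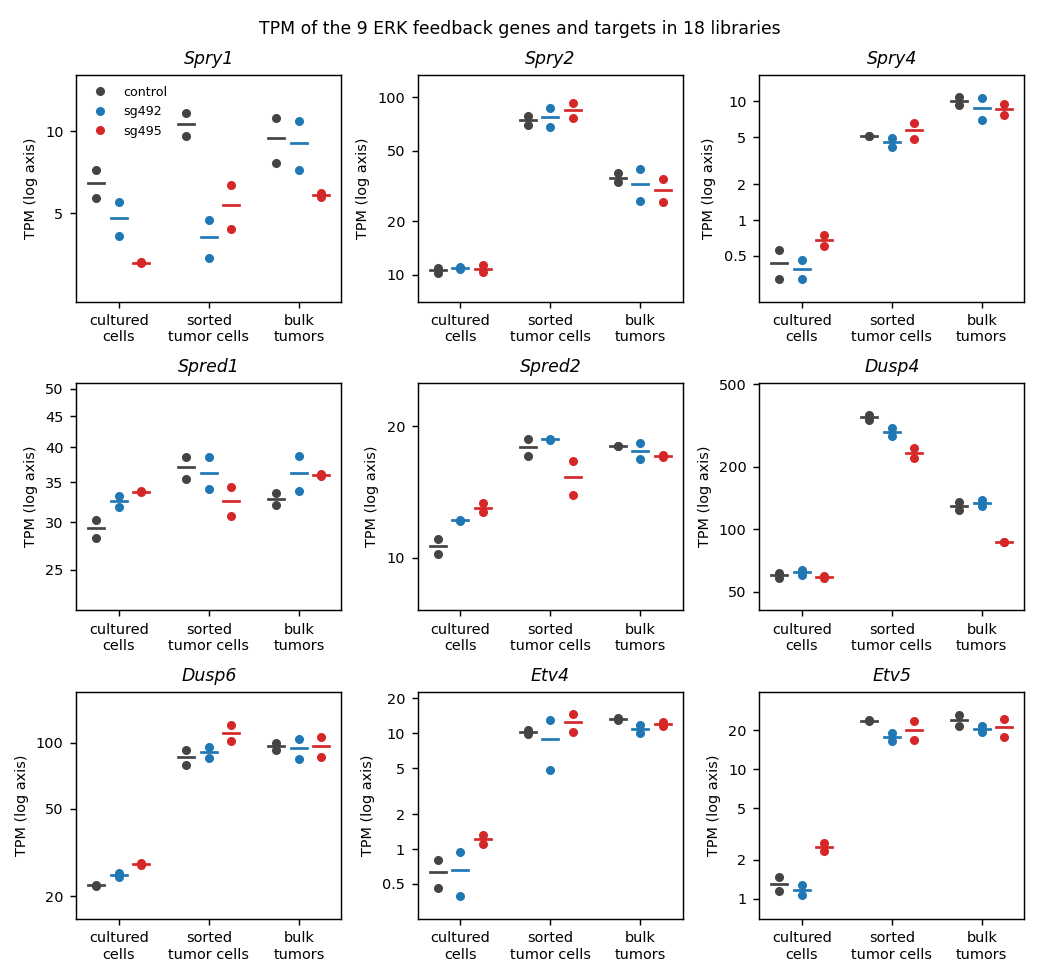
TPM on a log axis for each of the 9 genes in cultured cells, sorted tumor cells and bulk tumors, with 1 point per library and a bar at the mean of the 2 libraries of a guide. Etv4, Etv5, Spry4 and Dusp6 rise about as high in bulk tumors as in sorted tumor cells or higher, Spry2 and Dusp4 peak in sorted tumor cells, and Spred1 is nearly level.

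Of the transcription factors, Etv5 was the member with the largest log2 difference between sorted and cultured libraries. Its TPM ran from 1.07 through a median of 1.38 to 2.69 in cultured cells, from 16.65 through 21.3 to 23.9 in sorted tumor cells, and from 17.7 through 21.6 to 26.1 in bulk tumors. The tumor samples overlapped each other, and both lay wholly above the cultured cells. On the scale of log2(TPM + 1), on which all log2 differences here are given, sorted exceeded cultured by 3.04 (standard error 0.102). Etv4 had the same order, with 0.39, 0.88 and 1.32 TPM as lowest, median and highest in cultured cells, 4.81, 10.5 and 14.7 among sorted libraries and 9.98, 12.1 and 13.6 in bulk tumors. The lowest sorted value of Etv4 belonged to a library labeled sg492, yet it lay above every cultured value. The log2 difference of Etv4 was 2.61 (standard error 0.181), an understatement of the ratio because the cultured levels lie near the added 1 TPM. Etv4 and Etv5 lie on chromosomes 11 (chr11:101769742-101785371) and 16 (chr16:22381309-22439719) of GRCm38.

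Dusp6, a cytoplasmic phosphatase specific for ERK, followed the pattern of the ETS factors. It had 22.4, 25.04 and 28.2 TPM in cultured cells, 79.01, 93.9 and 121 among sorted libraries and 84.5, 96.1 and 106 in bulk tumors. The sorted mean was 95.6 ± 14.5 TPM and the bulk mean 95.5 ± 9.23 TPM (SD, n = 6 each), a log2 difference of 0.01 (standard error 0.0714).

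Dusp4, a nuclear phosphatase of ERK, differed from Dusp6 in that it was far higher in sorted tumor cells than in bulk tumors. The lowest, median and highest values were 58.05, 59.8 and 63.9 TPM in cultured cells, 86.9, 126 and 139 in bulk tumors and 221, 296 and 357 in sorted tumor cells, with no overlap between any of the 3. By the mean of the 6 libraries Dusp4 was the most abundant member in each sample type, but its bulk values overlapped those of Dusp6, which averaged 96.3 TPM against 86.9 for Dusp4 in bulk tumors with sg495. Sorted exceeded cultured by 2.24 on the log2 scale (standard error 0.0415), and bulk lay 2.50-fold below sorted.

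Among the Sprouty genes, Spry2, which encodes an inhibitor of RAS activation, shared the order of Dusp4. It had 10.2, 10.8 and 11.3 TPM in cultured cells, 25.5, 33.9 and 39.2 in bulk tumors and 68.3, 77.8 and 92.9 in sorted tumor cells, again without overlap. Spry4 took a different order, with 0.32, 0.51 and 0.75 TPM in cultured cells, 4.11, 4.995 and 6.60 among sorted libraries and 6.96, 9.40 and 10.8 in bulk tumors. The mean of Spry4 was 1.80-fold higher in bulk tumors than in the sorted libraries, and the ranges did not overlap. Of the 9 genes, 1 (Spry4) was called higher and 2 (Dusp4 and Spry2) lower in bulk than in sorted samples, beside 9.26% and 4.31% of all genes.

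Spry1 and the Spred genes differed less between sample types than the other members. Spry1 had 3.27 to 7.21 TPM in cultured cells, 3.43 to 11.7 in sorted tumor cells and 5.74 to 11.2 in bulk tumors, and the 3 ranges overlapped. Its ratio of sorted to cultured TPM was 1.65 in controls, 1.63 with sg495 and 0.848 with the label sg492. Spred1 and Spred2 encode membrane-bound proteins that bring the RAS inhibitor neurofibromin to RAS. Spred1 kept to 28.3 to 38.7 TPM over all 18 libraries. Spred2 was somewhat lower in cultured cells (10.2 to 13.3 TPM) than in sorted tumor cells (13.95 to 18.7) or bulk tumors (16.8 to 18.2), with no overlap between cultured and tumor samples and a ratio of 1.69 between sorted and cultured controls. Spry1, Spry2, Spred1, Spred2 and Dusp6 lie on chromosomes 3, 14, 2, 11 and 10, and Spry4 on chromosome 18, so that no pair of members shares a locus.

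With the control libraries alone, the ratio of sorted to cultured TPM was 18.2 for Etv5, 16.2 for Etv4, 11.5 for Spry4, 7.05 for Spry2, 5.78 for Dusp4 and 3.81 for Dusp6. The ratios of bulk tumors to cultured cells in controls were 22.9 for Spry4, 21.03 for Etv4, 18.2 for Etv5, 4.27 for Dusp6, 3.35 for Spry2 and 2.16 for Dusp4. With sg495 several of these ratios were smaller, and that of Etv5 was 8.06 for sorted and 8.40 for bulk samples. The mean of Etv5 was 1.31 TPM in cultured controls and 2.51 with sg495, against 23.8 and 20.2 in sorted and 23.8 and 21.1 in bulk samples. That of Etv4 was 0.635 and 1.215 TPM in culture, 10.3 and 12.5 in sorted and 13.4 and 12.01 in bulk samples. The ratios thus rest on cultured means of few TPM. Spry1 changed its order, with a mean of 10.6 TPM in sorted and 9.43 in bulk controls, against 5.35 and 5.82 with sg495. Without the sorted pair labeled sg492, the log2 difference of Spry1 between sorted and cultured libraries was 0.59.

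A list of 27 other ERK feedback genes and targets (26 in the table, 19 tested) was compared in the same way. Of these, 15 were called higher and 2 lower in sorted than in cultured libraries, beside 14.6% and 8.99% of all genes. Their median log2 difference was 1.01 beside 0.00 for all genes. Dusp5 and Epha2, both called higher, averaged below 1 TPM in cultured cells and passed the filter through the tumor samples alone, and of the other 17 tested, 13 were higher and 2 lower. The phosphatase gene Dusp1 led these 17 (3.48, standard error 0.156, limma adjusted p = 1.52e-09). It was followed by Mafk, a small MAF transcription factor gene (2.21), the ETS factor gene Etv1 (1.82), Dusp2 (1.68) and Dusp10 (1.60). The phosphatase gene Dusp5, which passed through the tumor samples alone, stood at 3.497 (standard error 0.121) and is given without a p-value. Lower were Ier3, an early response gene (-1.14), and Dusp7, a cytoplasmic phosphatase gene (-1.03). Dusp1, Dusp2 and Dusp10 encode phosphatases that act on p38 or JNK kinases, so this list is not a reading of ERK alone.

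The cascade was compared in the same way between sorted and cultured libraries. Of 42 genes for adaptors, RAS, RAF, MEK, ERK, their regulators, and the kinases and transcription factors that ERK acts on, 6 were called higher and 2 lower, beside the 14.6% and 8.99% of all genes, with a median log2 difference of 0.02. The largest were Srf (2.06, standard error 0.0693, adjusted p = 1.35e-10) and Ets2 (1.21), both genes of transcription factors downstream of ERK, and Sos1, which encodes a RAS activator, was lower (-0.81). Of 14 receptor tyrosine kinase genes tested, 2 were called higher (Igf1r at 1.23 and Ddr2 at 0.71) and 3 lower (Fgfr3 at -0.85, Pdgfrb at -0.70 and Erbb3 at -0.66). Of 10 growth factor genes, 4 were higher, led by Vegfa (1.92), an angiogenic factor, and Fgf7 (1.11), and Vegfc was lower (-0.63). Fgf7 averaged below 1 TPM in cultured cells and passed the filter through the tumor samples alone, as did 4 growth factor genes not called, and of the other 5 tested 3 were higher.

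Immediate early genes, transcribed within minutes of a stimulus and often raised by tissue digestion, were higher in sorted than in cultured libraries. All 20 tested genes of this list were called higher than in cultured cells, beside 14.6% of all genes, with a median log2 difference of 3.08. Of these, 4 (Egr1, Egr2, Fosb and Klf2) averaged below 1 TPM in cultured cells and passed the filter through the tumor samples alone, while the other 16 did not depend on them to pass it. Fosb (7.69), Fos (7.05) and Egr1 (5.68) led, and the summed TPM of the 22 listed genes was 161 to 199.8 in cultured cells, 362 to 515 in bulk tumors and 1733 to 2626 in sorted tumor cells. In bulk tumors against sorted tumor cells, 18 of the 20 were lower and 1 was higher, with a median of -1.81. The other ERK targets divided into 10 lower and 2 higher of 19, beside 4.31% lower and 9.26% higher of all genes. Dusp4 and Spry2 fell between sorted and bulk samples with these lists, and Etv4, Etv5, Dusp6 and Spry4 did not. Only the sorted samples had been digested, and the part of digestion in the result was not tested.

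**Figure D2:**
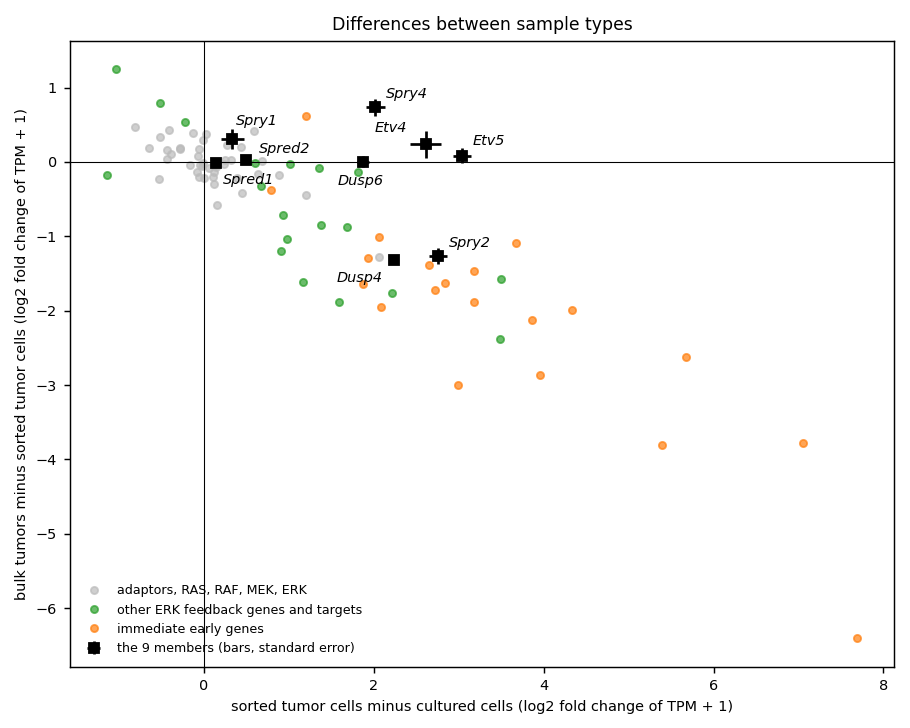
Each point is a gene, with its log2 difference between sorted tumor cells and cultured cells on the x axis and between bulk tumors and sorted tumor cells on the y axis. Black squares are the 9 genes with standard errors, and both axes share the sorted libraries, so a slope among points is not independent evidence. Dusp4 and Spry2 sit low, at -1.32 and -1.26 on the y axis, near many immediate early genes, while Etv4, Etv5, Dusp6 and Spry4 sit at or above 0.

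Bulk tumors also held stromal RNA that cultured and sorted samples nearly lacked. Compared with sorted tumor cells, 14 of 15 leukocyte, 9 of 9 fibroblast and 8 of 9 endothelial marker genes tested were higher in bulk, with median log2 differences of 4.13, 4.77 and 2.996, and none of these was called lower. Of those higher, 10, 5 and 7 averaged below 1 TPM in both sorted and cultured libraries and so passed the filter through bulk tumors alone. Vwf, at -0.44, and Cd79a, at -0.29, had negative differences. Of all genes, 9.26% were called higher in bulk than in sorted samples and 4.31% lower. Lyz2 was the most abundant leukocyte marker in bulk (226 to 443 TPM) and Col3a1 the most abundant fibroblast marker (169 to 478). Of 10 growth factor genes, 6 were higher in bulk, led by Gas6 (3.002), Pdgfb (2.89) and Igf1 (2.51), and Vegfa was lower (-0.95), with a median of 0.96. Of the 6, 4 (Gas6, Igf1, Kitl and Pdgfb) passed the filter through bulk tumors alone, as did Fgfr1 among the receptor genes. Of 14 receptor genes, 5 were higher, led by Axl (2.09), Fgfr1 (1.93) and Pdgfrb (1.38), and Igf1r was lower (-0.82), with a median of 0.05. How far stromal cells contributed to member levels in bulk was not tested. In sorted tumor cells the fibroblast sum was below that of cultured cells and Cdh5, a defining endothelial gene, was at most 0.02 TPM, although the endothelial sum, led by Egfl7 or Vwf, was 35.8 to 56.6 TPM against 18.1 to 20.2 in cultured cells.

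For the 6 members called higher in sorted than in cultured libraries, no fitted log2 difference between a guide and control exceeded 0.61 in size (Etv5 in cultured cells with sg495). At levels near the added 1 TPM, that difference understates the ratio of mean TPM, which was 1.92. Etv4 and Spry4 had no fit in cultured cells, where their ratios with sg495 over control were 1.91 and 1.55. The control libraries are shared by the sg492 and sg495 comparisons of each sample type. In bulk tumors, 0 of 9 members were called with sg495 and 0 with sg492, beside 0.0293% and 0% of 13639 genes (limma, with 2135 and 1132 of all genes at an unadjusted p below 0.05). Among sorted libraries 0 of 9 were called with sg495, where 0.605% of 12899 genes were called higher and 0.295% lower, and 0 with the label sg492, beside 0.0388% (2010 and 920 genes at an unadjusted p below 0.05). In cultured cells, where Etv4 and Spry4 lay below the filter of a mean of 1 TPM and 7 members were tested, 1 was called with sg495, lower, and 0 higher, beside 2.03% lower and 0.733% higher of 12007 genes. With sg492, 0 of the 7 were called in cultured cells, beside 0.05% (1265 genes at an unadjusted p below 0.05, and 3337 with sg495).

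**Figure D3:**
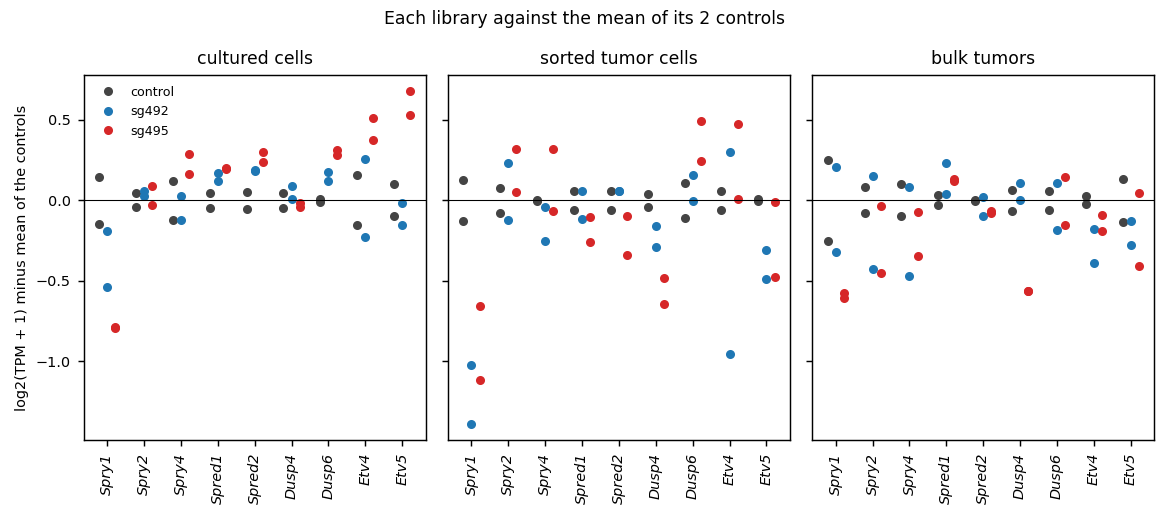
The log2(TPM + 1) of every library minus the mean of the 2 controls of its sample type, for the 9 genes, colored by guide. Spry1 with sg495 lies below its controls in every panel, Dusp4 does so in sorted tumor cells and bulk tumors only, and Etv5 and Dusp6 with sg495 lie above the controls in cultured cells.

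Spry1, which encodes an inhibitor of receptor tyrosine kinase signaling, stood at 5.69 and 7.21 TPM in cultured controls, 5.50 and 4.10 with sg492 and 3.29 and 3.27 with sg495, so that both guides lay below the controls. The sorted controls had 9.61 and 11.7 TPM, the pair labeled sg492 4.71 and 3.43, and sg495 6.34 and 4.35. In bulk tumors the values were 7.62 and 11.2 in controls, 7.21 and 10.9 with sg492, and 5.74 and 5.90 with sg495. With sg495 the libraries were thus below the controls without overlap in all 3 sample types, by -0.79 (standard error 0.166) on the log2 scale in cultured cells, -0.89 (0.227) among sorted libraries and -0.59 (0.237) among bulk tumors. With sg492 the differences were -0.36, -1.20 and -0.06, the last with overlapping libraries. Spry1 was the 1 member counted above as called in cultured cells, a count that was 0 without the expression filter, with the replicate block and in the fit of all 18 libraries. It was also 0 with any 1 library left out, where each omission leaves a group of 1 library whose spread is taken from the other groups.

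With sg495, Dusp4 lay below its controls in both kinds of tumor sample and overlapped them in culture. Sorted tumor cells had 337 and 357 TPM in controls, 309.8 and 283 with the label sg492, and 221 and 247 with sg495. Bulk tumors had 135 and 124 TPM in controls, 139 and 129 with sg492, and 86.9 and 86.9 with sg495. Cultured cells had 61.8 and 58.05 TPM in controls, 60.3 and 63.9 with sg492, and 59.3 and 58.1 with sg495. The log2 differences with sg495 were -0.03 (standard error 0.0549) in culture, -0.56 (0.0891) among sorted libraries and -0.57 (0.0728) among bulk tumors.

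Dusp4 lies on chromosome 8 (chr8:34807297-34819894 of GRCm38), as does Nr2f6 (chr8:71374123-71381960), and genes near Dusp4 lay mostly below their controls with sg495. Genes within 10 Mb of Dusp4, a window chosen after the values were seen, had a median log2 difference with sg495 of -0.32 in cultured cells (60 genes), -0.32 among sorted libraries (62 genes) and -0.27 among bulk tumors (65 genes). Of them, 54, 51 and 55 were below 0. The medians of the other autosomes were 0.01, -0.03 and 0.07. Relative to the median of chromosome 8, Dusp4 differed by 0.30 in cultured cells, -0.22 among sorted libraries and -0.32 among bulk tumors. Dusp4 thus lay above the median of its chromosome in culture and below it in tumors. The part of the chromosome-wide shift in the difference of Dusp4 was not tested.

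**Figure D4:**
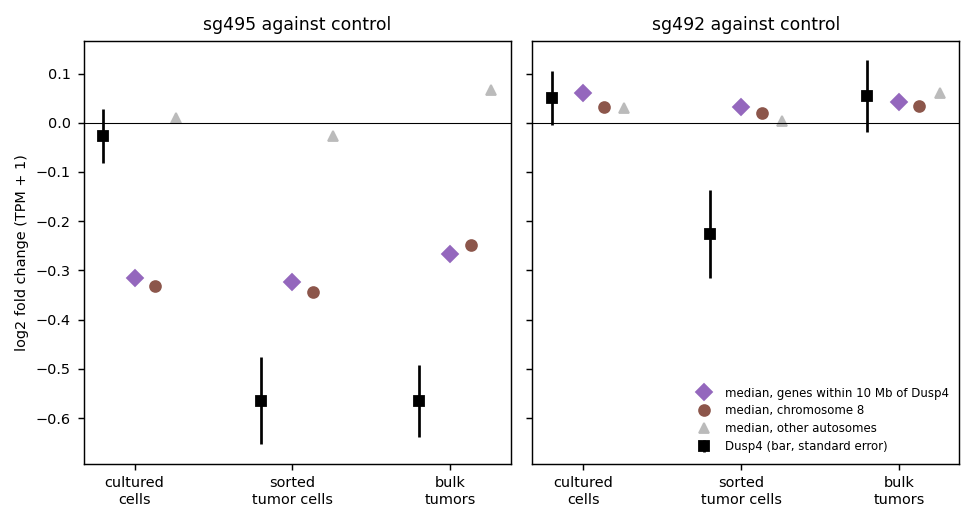
Log2 differences from control with sg495 and sg492 in cultured cells, sorted tumor cells and bulk tumors, for Dusp4 with its standard error and for the medians of genes within 10 Mb of it, of chromosome 8 and of the other autosomes. With sg495 the neighbor medians lie between -0.32 and -0.27, with Dusp4 at -0.03 in culture and near -0.56 in tumors, whereas with sg492 the medians lie near 0.

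Of the ETS factors and Dusp6 in cultured cells, Etv5 had 1.47 and 1.15 TPM in controls, 1.28 and 1.07 with sg492 and 2.33 and 2.69 with sg495, a log2 difference of 0.61 (standard error 0.175) with sg495. Dusp6 had 22.4 and 22.6 TPM in controls, 24.5 and 25.6 with sg492 and 28.2 and 27.6 with sg495, a log2 difference of 0.30 (0.0571). Neither overlapped its controls. Etv4, below the filter, had 0.46 and 0.81 TPM in controls and 1.32 and 1.11 with sg495, and Spry4 had 0.32 and 0.56 against 0.61 and 0.75. Spred1 and Spred2 were above their controls by 0.20 and 0.27, and Spry2 overlapped them. In all, of the 7 members tested in cultured cells, 4 were above the controls with sg495, 1 (Spry1) was below and 2 overlapped them. With 2 libraries a group such separation is common: 27.5% of the 12007 genes tested lay above their controls without overlap and 28.9% below. The low-level genes Etv4 and Spry4 lay above theirs.

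Among sorted libraries with sg495, 1 of the 9 genes (Dusp6, 79.01 and 92.3 TPM in controls against 101 and 121) was above, 5 were below (Spry1, Spred1, Spred2, Dusp4 and Etv5) and 3 overlapped, beside 17.9% of all genes above and 31.5% below. Etv5 had 23.9 and 23.7 TPM in sorted controls and 23.6 and 16.8 with sg495, the first within 1 TPM of the controls. Sorted sg495 replicate 1 had a mitochondrial share of TPM of 8.02%, against 3.45% to 4.73% in the other sorted libraries. Its part in these differences was not tested. In bulk tumors 1 (Spred1) was above, 4 (Spry1, Spred2, Dusp4 and Etv4) below and 4 overlapped, beside 31.6% and 14.3% of all genes. The difference of the sg495 effect between sample types was called for 0 of the 9 genes in sorted against cultured cells and 0 in bulk tumors against cultured cells, beside 2.51% and 1.76% of 13152 genes (limma, 2456 and 2012 genes at an unadjusted p below 0.05).

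With sg492 in sorted tumor cells, 0 of the 9 were above the controls and 4 were below, beside 20.4% and 20% of all genes. Apart from Spry1 and Dusp4, these were Etv5 (19.04 and 16.65 TPM against 23.9 and 23.7 in controls) and Spry4 (4.92 and 4.11 against 5.09 and 5.07). In bulk tumors with sg492, 1 gene (Spred1) was above, 1 (Etv4) below and 7 overlapped, beside 31.1% and 11.3% of all genes. In cultured cells with sg492, 3 of the 7 tested (Spred1, Spred2 and Dusp6) were above, 1 (Spry1) was below and 3 overlapped, beside 27.2% and 14.3% of all genes.

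Among other genes of the pathway in cultured cells with sg495, 3 of 17 other ERK targets, 2 of 6 growth factor genes and 2 of 16 immediate early genes were called, beside the 0.733% higher and 2.03% lower of all genes. Of the ERK targets, Ier3 was lower (-1.43, standard error 0.0470, adjusted p = 0.00036), and Ccnd1, which encodes cyclin D1 (0.93, adjusted p = 0.000729), and the EGF-like ligand gene Hbegf (0.71, adjusted p = 0.0476) were higher. Ier3 had 279 and 286 TPM in cultured controls, 234 and 225 with sg492 and 108 and 101 with sg495, and Ccnd1 had 65.7 and 65.1 against 127 and 125 with sg495. The ligand gene Vegfa was lower (-0.94) and Pdgfa higher (0.70), and the AP-1 family genes Jund (-0.79) and Atf3 (-0.69) were lower. Differences of list genes were not adjusted for chromosome. In this comparison the median log2 difference was -0.33 on chromosome 8 and 0.01 on the other autosomes. The part of that shift in these calls was not tested.

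Sorted tumor cells with sg495 had 2 calls in these lists. These were Axl, 1 of 12 receptor genes (1.53 and 2.15 TPM in controls, 13.7 and 14.5 with sg495, log2 difference 2.42, standard error 0.219, limma adjusted p = 0.0134), and Egr1, 1 of 21 immediate early genes (1.15, adjusted p = 0.0400), both higher. The sg495 effect itself differed between sorted and cultured cells by limma for Ier3 (1.73, adjusted p = 0.00809), Ccnd1 (-0.97, adjusted p = 0.00656), Vegfa (1.51, adjusted p = 0.00431) and Axl (2.45, adjusted p = 0.000794). Egr1 lay between 0.05 and 0.32 TPM in cultured libraries, too low for its guide effect there to be compared. None of the 42 cascade genes was called with either guide in any sample type. In bulk tumors no gene of the ERK target, ligand, receptor, cascade or immediate early lists was called with either guide. The summed leukocyte markers in bulk were 643 and 461 TPM in controls, 724 and 841 with sg492 and 958 and 1081 with sg495, and the fibroblast sums were 499.5 and 399.7, 560.5 and 644, and 661 and 1104. The part of these cells in the bulk differences of the members was not tested.

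Over the 18 libraries, the Pearson r of log2(TPM + 1) had a median of 0.752 over the 36 pairs of members, and 0.208 once the mean of each sample type was taken away, with 28 pairs above 0. The closest pairs were then Spry2 with Spry4 (0.780), Spred1 with Spred2 (0.758) and Etv4 with Spry4 (0.708), and the farthest was Dusp4 with Dusp6 (-0.372). These points share libraries and guides and are a description.

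Of 13152 genes, those most like the mean z-score of the members over the 18 libraries were Adam12 (r = 0.983), a metalloprotease gene, Etv1 (0.981), Ocrl (0.978), Fbln5 (0.974) and Tspan15 (0.969). Adam12 averaged 8.33 TPM in cultured cells, 70.8 in sorted tumor cells and 56.6 in bulk tumors, and Etv1 2.71, 11.9 and 10.7. With sample type means removed, the nearest genes were Myc (0.865), a growth-promoting transcription factor gene, Ppil4 (0.811), Trmt10c (0.810), Eif1a (0.761) and Wdr43 (0.755).

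The IgG and anti-PD1 libraries, which the choice of the 9 genes did not use, addressed whether checkpoint antibody treatment moved the members. They differed in makeup from the 18 libraries, with 7205 to 12040 TPM summed over leukocyte markers, led by Lyz2, and 2217 to 6358 over melanocyte markers. IgG replicate 2 stood apart, with 13794 genes above 0 TPM where the other 4 libraries had 17145 to 19334, and Spry1 and Spry4 were listed at 0 in it. The mitochondrial share of TPM was 10.2% and 11.4% in IgG and 8.63% to 21.9% in anti-PD1 libraries.

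Of the 9 members, 0 were called with anti-PD1 against IgG, beside 0% of 13418 genes (limma, 0 members and 964 genes at an unadjusted p below 0.05). With the replicate number as a block, 0 members and 514 genes were called. No source states that equal numbers of IgG and anti-PD1 libraries are pairs. An anti-PD1 library had no IgG library of its number, so this fit leaves little to estimate the spread and nothing is read from its count. Dusp6 had 70.8 and 69.7 TPM in IgG and 77.4, 103 and 83.8 in anti-PD1 libraries, the only member higher without overlap (log2 difference 0.31, standard error 0.210, limma adjusted p = 0.620). Etv4 had 3.99 and 3.68 TPM in IgG and 1.86, 2.15 and 2.12 in anti-PD1 libraries (-0.67, standard error 0.370, adjusted p = 0.608), and Spred2 had 15.9 and 17.3 against 12.98, 13.3 and 11.7 (-0.37, standard error 0.226, adjusted p = 0.614). Both lay below IgG without overlap, and the other 6 members overlapped. Thus 1 of 9 was above and 2 below, beside 9.57% and 15.8% of all genes. The summed melanocyte markers were 5013 and 2217 TPM in IgG and 6358, 6205 and 4287 in anti-PD1 libraries, with a median log2 difference of 0.89, and the leukocyte sums were 12040 and 11846 against 7205, 10641 and 11025, with a median of -0.54. No gene of either list was called, and the part of makeup in the differences of the members was not tested.

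Spry1 (3.75 and 0 TPM in IgG and 5.96, 5.42 and 3.44 in anti-PD1 libraries) had the largest log2 difference of a member, 1.42 (standard error 0.673, limma adjusted p = 0.608), which was 0.30 without IgG replicate 2. Dusp4 (47.3 and 24.1 against 61.3, 59.8 and 45.3 TPM) differed by 0.68 (standard error 0.321, adjusted p = 0.608), and by 0.21 without that library. Spry4 had 1.29 and 0 TPM against 1.75, 2.40 and 1.28, a log2 difference of 0.87 that was 0.28 without it. Spry2 (17.9 and 14.6 against 17.8, 18.8 and 16.3), Spred1 (33.5 and 43.1 against 28.4, 43.4 and 33.3) and Etv5 (36.7 and 28.02 against 23.5, 31.7 and 22.9) differed by 0.11, -0.14 and -0.31, and without IgG replicate 2 by -0.03, 0.04 and -0.49, so that Spry2 and Spred1 turned sign. Without IgG replicate 1 the differences were 2.54 for Spry1, 1.16 for Dusp4 and 1.47 for Spry4. For Spry2, Spred1 and Etv5 they were then 0.25, -0.31 and -0.12. None of the 20 other ERK targets and 22 immediate early genes tested was called, the largest differences being those of Etv1 (1.18), Nr4a2 (-1.06), Nr4a1 (1.00) and Dusp5 (-0.92). Without IgG replicate 2 these were 0.13, -0.78, 0.46 and -0.47, and without IgG replicate 1 they were 2.23, -1.34, 1.54 and -1.37.

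**Figure D5:**
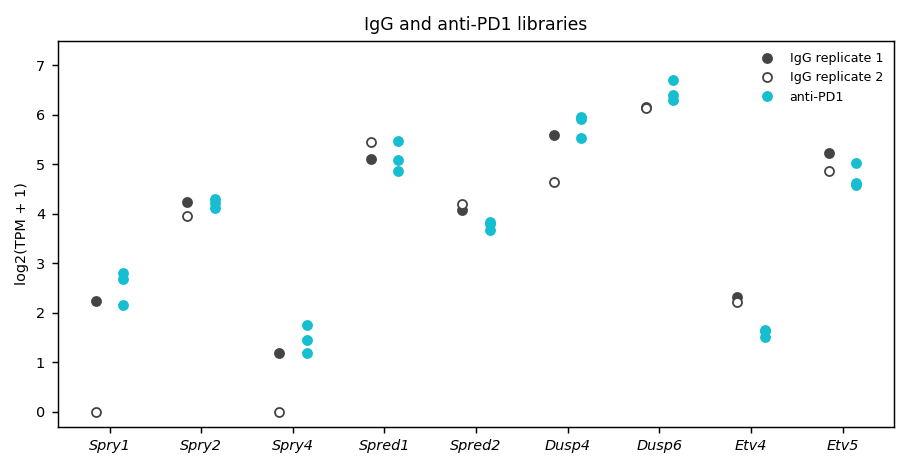
The log2(TPM + 1) of the 9 genes in the 2 IgG and 3 anti-PD1 libraries, 1 point per library, with IgG replicate 2 as an open circle. Dusp6 is higher and Spred2 and Etv4 are lower with anti-PD1 without overlap, and the open circle is at 0 for Spry1 and Spry4.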

How the data were processed

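Poly(A) RNA of 23 libraries was measured, of which 18 fall into 9 groups of 2 (3 sample types by control, sg492 and sg495) and 5 are IgG or anti-PD1 libraries. The authors deposited TPM per gene. Per the labels and methods, reads were trimmed with cutadapt 2.3, aligned to mm10 with STAR 2.7.0d and quantified with RSEM 1.3.1, and the study's own test was DESeq2 on estimated counts, which were not used here. TPM carry no depth, so no counting interval could be given. All 23 sample columns were mapped to a label, and 0 were left over. Where a symbol occurred more than once, the row of the higher mean was used.

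Genes averaging 1 TPM or more over the libraries of a comparison were tested with limma 3.58.1 (R 4.3.3) on log2(TPM + 1), with 1 mean per group and a trended variance. Guide comparisons used the 6 libraries of a sample type, and comparisons between sample types all 18. A call required a fold of 1.5 or more and an adjusted p below 0.05 (Benjamini-Hochberg, over all genes tested). The procedure was tested on simulated data. Pearson r was computed in Python 3.11.15 with pandas 2.3.3, and plots were drawn with matplotlib 3.10.9. Positions are from GENCODE M21, and 47224 of 47643 genes had one. The 9 members were chosen with the 18 libraries in view, and all lists with earlier results of these data known. The p-values of list genes thus do not follow from a choice made before the data were seen. Named were the members, Nr2f6, at most 6 called genes (or else 3 with the largest difference) per list and comparison, and the 5 genes of highest r. Some genes outside this rule, such as Ptprc, Cdh5, Lyz2 and Col3a1, were added as markers after their values were seen.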

Additional observations from a re-analysis of the deposited data

Results flagged for a closer look

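With sg495, 4 members lay on opposite sides of the controls, without overlap, in cultured cells and in a tumor sample type. For Spred1 the sg495 effect was lower in sorted than in cultured libraries, by a log2 difference of -0.38 (standard error 0.120). For Spred2 the difference was -0.49 in sorted against cultured cells (standard error 0.126) and -0.34 in bulk tumors against cultured cells. For Etv5 it was -0.85 in sorted against cultured cells (standard error 0.248), and for Etv4 -0.59 in bulk tumors against cultured cells (standard error 0.443). The members were chosen with these libraries in view, so no p-value is given, and the difference was not tested in libraries outside that choice. Of 13152 genes, 18.3% showed the same pattern. In bulk tumors Spred1 lay above its controls, the same side as in culture, and Etv4 averaged below 1 TPM in cultured cells. For Dusp4 the difference was -0.54 in both comparisons, with overlapping groups in culture.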

How the results depend on the processing

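Groups of 2 libraries and the absence of counts limit what could be detected. The counts of 6 members called in sorted against cultured and 3 in bulk against sorted samples were 6 to 8 and 3 over the alternatives tried. The members were chosen with these libraries in view, so these ranges describe the processing only and are no test of the differences. In cultured cells with sg495 the count of 1 (Spry1) became 0 without the expression filter, with the replicate block and in a fit of all 18 libraries, 2 without a variance trend (Spry1 and Etv5), and 0 to 0 with any 1 library left out. In sorted tumor cells with sg495 it went from 0 to 1 (Spry1) in the fit of all 18 libraries. The count of members whose sg495 effect differed went from 0 to 1 with a pseudocount of 0.1 in sorted against cultured cells, and to 1 with median-of-ratios scaling in bulk tumors against cultured cells. Leaving out 1 library gave 0 to 2 (2 without sorted sg495 replicate 1) and 0 to 1 (1 without bulk control replicate 2). Each omission left a group with 1 library, assumed to vary like the others, so a call lost there is no measure of stability. The causes were not tested.

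Counts over all genes moved more. With sg495 they were 4 in bulk tumors (0 to 395 over the alternatives), 116 in sorted tumor cells (3 to 399) and 332 in cultured cells (219 to 366), where the fit of all 18 libraries gave 395 and 399 and the absence of a filter 0, 3 and 219. With sg492 they were 0 (0 to 1), 5 (0 to 14) and 6 (0 to 6), and for the differences of the sg495 effect 330 (211 to 360) and 231 (87 to 311). With 1 library left out, the sg495 counts were 0 to 190, 4 to 49 and 165 to 219, those of sg492 0 to 66, 0 to 5 and 0 to 1, and those of the effect differences 136 to 324 and 35 to 418. The anti-PD1 count of 0 became 514 with the replicate block, 19 without IgG replicate 1 and 0 without IgG replicate 2. Same-numbered libraries of the 3 sample types did not deviate together (r from -0.126 to 0.0507), so the numbers were not taken as pairs. These r do not cover the IgG and anti-PD1 libraries, where the block moved the count from 0 to 514 and no source states that the numbers are pairs. For control and sg492 bulk tumors, where r was -0.126, a block with exchanged numbers, chosen after seeing the data, called 0 members and 0 genes.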
